A study of Homo sapiens with 12 samples.

Results

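The EGFR family signals through receptor tyrosine kinases at the cell surface, and the mRNA of 8 of its genes was followed in triple-negative breast cancer (TNBC) cells treated with nuclear receptor antagonists, a statin or a combination. The genes are the receptors EGFR, ERBB2 and ERBB3, the ligands AREG, EREG, TGFA and HBEGF, and the feedback inhibitor ERRFI1. They were taken by symbol, with earlier results of these data known, as 8 of 56364 distinct gene symbols listed in the 3 expression tables, and every one of the 8 had an entry in every table.

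The data are 12 RNA-seq libraries from 2 human TNBC cell lines, HCC70 and MDA-MB468, which lack the estrogen and progesterone receptors and ERBB2 amplification by definition of the subtype. Each line was exposed for 24 h to vehicle, 1.25 μM XY018, 2.5 μM XY018, 1.25 μM atorvastatin (ATV) or 1.25 μM XY018 with ATV. In a separate MDA-MB468 experiment, a second vehicle library was set beside 1 library from cells given 2.5 μM GSK805 for the same time. XY018 and GSK805 are antagonists of a nuclear receptor, and ATV inhibits HMG-CoA reductase, the rate-limiting enzyme of cholesterol synthesis. Both lines were at passages labelled 6-9, and the labels give RPMI with 10% serum as medium, with insulin added for MDA-MB468, whereas the study's methods list MDA-MB468 under DMEM without insulin. Each condition has 1 library, so no spread between replicates can be given, no test was made and every statement is about these libraries. The 3 tables (HCC70, MDA-MB468 with XY018 and ATV, and MDA-MB468 with GSK805) were normalized separately. In bulk RNA, fewer cells expressing a gene and less RNA per cell cannot be told apart.

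EGFR, ERBB2, ERBB3 and ERBB4 form homo- and heterodimers once ligand is bound, and the paired kinase domains then phosphorylate each other and recruit adaptors that feed the RAS-MAPK and PI3K-AKT routes. AREG, EREG, TGFA and HBEGF are made as membrane-anchored precursors and are released by ADAM metalloproteases, chiefly ADAM17. ERBB2 has no known ligand of its own, ERBB3 has a weak kinase and acts through its partners, and ERRFI1 (MIG6) binds the EGFR kinase domain and blocks it. MDA-MB-468 is known for amplification of EGFR.

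Values are FPKM, the number of sequenced fragments scaled by transcript length and library size, which is a level per length and so can be compared between genes. The log2 ratio of a treated library to the vehicle of its own experiment was taken after adding 0.1 FPKM to both values, and a gene was counted as higher or lower when it passed 1.5-fold. Only genes with at least 1 FPKM in either library of a comparison entered the counts. Each ratio carries a 95% exact interval (Clopper-Pearson) from fragment numbers estimated for the gene. The interval covers counting error only, not the spread between cultures, and is for the ratio without the 0.1 FPKM. Estimated depth was 8940000 to 9840000 fragments per library for HCC70, 18200000 to 19900000 for MDA-MB468 treated with XY018 or ATV, and 8330000 and 8690000 for the pair with GSK805. All 5 epithelial markers examined (EPCAM, CDH1, KRT8, KRT18, KRT19) were at 1 FPKM or more in every library. PGR was at 0 or without an entry in every library. ESR1 read 0.37 to 0.67 FPKM in the 2 tables with XY018, but 1.77 FPKM with vehicle and 5.67 FPKM with GSK805 in the third. The 10 most abundant genes held at least 46.4% of the FPKM in the GSK805 experiment against 6.72% to 16.6% in the other libraries.

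Among the 8 genes, the vehicle libraries of the 2 lines differed most at EGFR. EGFR (GRCh37, chr7:55086710-55279321, plus strand) stood at 48.0 FPKM in HCC70 and at 944 FPKM in MDA-MB468, 19.7-fold higher in the latter. The lowest MDA-MB468 library of either experiment, at 617 FPKM, lay above the highest HCC70 library, at 52.5 FPKM. EGFR ranked 48th of 18215 symbols in the MDA-MB468 vehicle and 1602nd of 16489 in that of HCC70.

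The ligands ran the other way. HBEGF (chr5:139712428-139726188, minus strand), the heparin-binding ligand that is also the diphtheria toxin receptor, was at 10.2 FPKM in HCC70 vehicle and 1.71 FPKM in MDA-MB468 vehicle. AREG (chr4:75310853-75320722, plus strand), the low-affinity ligand amphiregulin, was at 4.63 and 0.9 FPKM. EREG (chr4:75230862-75254466, plus strand), the ligand epiregulin, was at 1.29 and 0.12 FPKM. For these 3 ligands, as for EGFR, no HCC70 library overlapped any MDA-MB468 library. The share of all genes for which the lines were separated in this way is not given here. TGFA (chr2:70674416-70781325, minus strand) was at 13.9 and 7.46 FPKM, 1.87-fold higher in HCC70, and the lines overlapped once the GSK805-treated library was included.

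ERBB2 (chr17:37844167-37886679, plus strand) was at 25.6 FPKM in both vehicles and ERBB3 (chr12:56470583-56497289, plus strand) at 34.1 FPKM in HCC70 and 25.0 FPKM in MDA-MB468. ERRFI1 (chr1:8064464-8086369, minus strand) stood at 50.5 and 53.9 FPKM, the highest of the 8 genes in HCC70. Within HCC70 vehicle the order was ERRFI1, EGFR, ERBB3, ERBB2, TGFA, HBEGF, AREG and EREG. In MDA-MB468 vehicle it was EGFR, ERRFI1, ERBB2, ERBB3, TGFA, HBEGF, AREG and EREG, with ERBB2 and ERBB3 only 25.6 against 25.0 FPKM apart. Differences of 1.5-fold or more between these 2 vehicles were common, at 59.6% of 12459 genes.

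**Figure D1:**
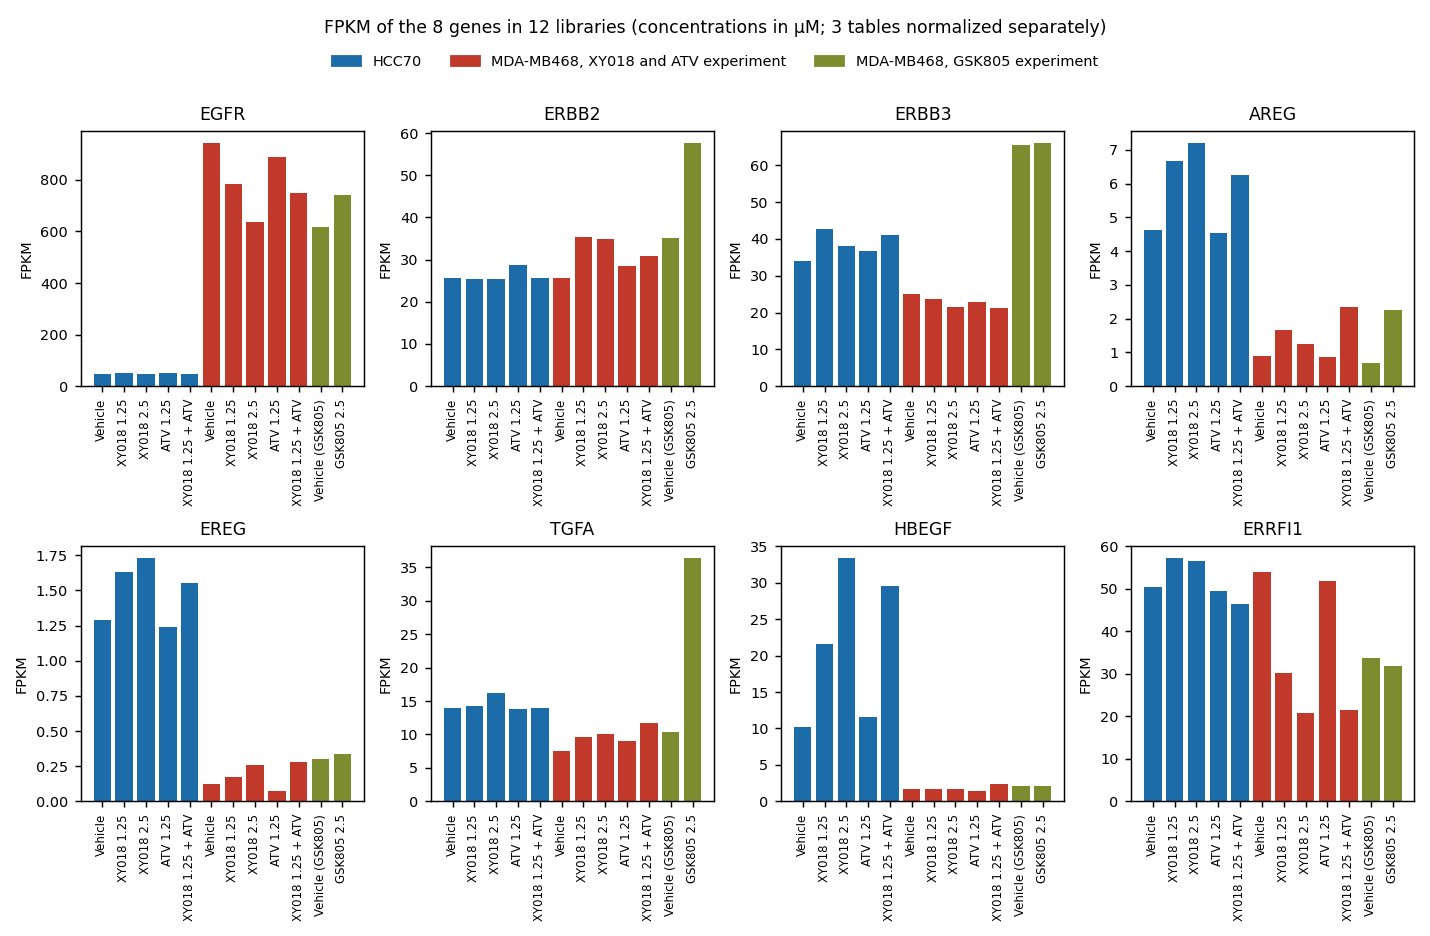
FPKM (vertical axes, each gene on its own scale from 0) of the 8 genes in the 12 libraries, 1 bar per library, coloured by line and experiment. EGFR bars run from 45.4 to 52.5 FPKM in HCC70 and from 617 to 944 FPKM in MDA-MB468, while HBEGF reaches 33.4 FPKM only in HCC70 and ERRFI1 drops to 20.8 FPKM only in MDA-MB468.

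The promoters of 4 genes are given here, 5′ to 3′ on the gene's strand. Each is the 250 bases before the RefSeq start site (GRCh38.p14, a later build than the GRCh37 of the tables). HBEGF and ERRFI1 were the members that differed most with XY018 in HCC70 and in MDA-MB468, and AREG and EREG share a gene cluster. The promoters of TGFA, which differed most with GSK805, are not printed. AREG lies at chr4:74444886-74445135 (plus), EREG at chr4:74364895-74365144 (plus), HBEGF at chr5:140346604-140346853 (minus) and ERRFI1 at chr1:8026310-8026559 (minus). Capitals mark matches to 1 of 3 motifs searched on both strands: AGGTCA, the core motif read by many nuclear receptors, TGACTCA, the AP-1 site, and the palindromic cAMP response element (CRE), TGACG followed at once by TCA. None of the 3 overlaps another in these windows.
AREG: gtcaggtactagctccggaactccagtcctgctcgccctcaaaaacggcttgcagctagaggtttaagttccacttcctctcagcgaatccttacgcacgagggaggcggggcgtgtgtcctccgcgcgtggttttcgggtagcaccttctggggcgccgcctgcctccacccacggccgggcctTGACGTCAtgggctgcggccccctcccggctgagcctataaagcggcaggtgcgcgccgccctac
EREG: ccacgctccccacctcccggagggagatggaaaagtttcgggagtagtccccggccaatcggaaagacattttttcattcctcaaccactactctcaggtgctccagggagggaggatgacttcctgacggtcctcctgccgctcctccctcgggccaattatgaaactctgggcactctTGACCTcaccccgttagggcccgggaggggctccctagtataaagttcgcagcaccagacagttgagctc
HBEGF: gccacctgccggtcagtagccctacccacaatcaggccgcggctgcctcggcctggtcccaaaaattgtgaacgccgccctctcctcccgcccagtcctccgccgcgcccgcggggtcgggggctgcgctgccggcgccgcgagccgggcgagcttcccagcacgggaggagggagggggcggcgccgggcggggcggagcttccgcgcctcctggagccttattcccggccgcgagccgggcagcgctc
ERRFI1: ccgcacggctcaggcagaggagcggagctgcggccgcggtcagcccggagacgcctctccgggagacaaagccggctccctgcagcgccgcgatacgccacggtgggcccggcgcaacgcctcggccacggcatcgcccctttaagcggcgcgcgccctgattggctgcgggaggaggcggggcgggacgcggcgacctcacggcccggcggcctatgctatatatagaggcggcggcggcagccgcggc
AREG carries the CRE 65 bases before its start, a match found in 1.85% of 35116 promoters of the same 300-base length. EREG carries AGGTCA on the opposite strand (read here as TGACCT) 70 bases before its start, a match found in 13.8% of promoters. The printed windows of HBEGF and ERRFI1 hold none of the 3 motifs, and the first 50 transcribed bases of HBEGF, not printed, hold AGGTCA on the opposite strand at position 43. Of the other members with an entry (7 of 8 in all, ERBB3 having none), ERBB2 and TGFA hold no match and 1 of the EGFR starts holds 2 AP-1 matches, a motif found in 4.95% of promoters. A match is a description of the letters and was not tested for binding here.

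Among the ligands in HCC70, HBEGF showed the largest differences. Its level was 10.2 FPKM with vehicle, 21.6 FPKM with 1.25 μM XY018, 33.4 FPKM with 2.5 μM XY018, 11.6 FPKM with ATV and 29.6 FPKM with XY018 and ATV together. The 3 libraries that received XY018 lay above the 2 that did not, without overlap. The share of all genes split in this way is not given, here or for the genes below. The log2 ratio to vehicle was 1.08 (0.85 to 1.32) at 1.25 μM and 1.70 (1.5 to 1.93) at 2.5 μM, or 2.11-fold and 3.25-fold. Few genes moved as far, since 99.1% and 99.6% of the genes compared showed a smaller change in either direction.

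With ATV alone, the HBEGF log2 ratio was 0.18 (−0.08 to 0.44), within counting error of vehicle. With the combination it was 1.53 (1.32 to 1.76), and 99.4% of genes changed less. The step from 1.25 to 2.5 μM XY018 was itself past 1.5-fold at HBEGF, with a log2 ratio of 0.63 (0.46 to 0.80), where 1.17% of all genes were higher and 1.36% lower. Adding ATV to 1.25 μM XY018 gave 0.45 (0.28 to 0.63) over XY018 alone, short of 1.5-fold, where 3.75% of genes were higher and 1.96% lower. Against ATV alone the combination stood at 1.35 (1.15 to 1.57), where 2.73% were higher and 2.54% lower.

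The leukocyte marker CD14 moved with HBEGF in HCC70. It read 170, 317, 419, 171 and 380 FPKM in vehicle, the lower and higher XY018 doses, ATV and the combination. Of the leukocyte markers CD14, PTPRC and CD3E, CD14 alone reached 1 FPKM in the HCC70 libraries, and together they summed to 170 to 172 FPKM without XY018 and 317 to 420 FPKM with it. PTPRC (CD45), the defining marker, read 0.15 to 0.63 FPKM and CD3E 0 to 0.14 FPKM. Endothelial markers summed to 1.12 and 1.32 FPKM without XY018 and 2.86 to 3.52 FPKM with it, and 0 to 2 of 3 reached 1 FPKM. That sum follows CDH5, at 0.25 and 0.17 FPKM with vehicle and ATV and 1.64, 1.93 and 2.28 FPKM with XY018. PECAM1 read 0.93 to 1.21 FPKM and VWF at most 0.04 FPKM. The basal keratins (KRT5, KRT6A, KRT6B, KRT14, KRT17) went the opposite way, summing to 1420 and 1210 FPKM without XY018 and to 678 to 882 FPKM with it. Epithelial markers summed to 1530 and 1670 FPKM without XY018 and to 1290 to 1440 FPKM with it. Of these markers only KRT19 separated the libraries, at 812 and 871 FPKM without XY018 and 639 to 667 FPKM with it. EPCAM, KRT8, CDH1 and KRT18 overlapped. EPCAM read 58.8 and 69.1 FPKM without XY018 and 61.6 to 67.0 FPKM with it. KRT8 read 283 and 313 FPKM without XY018 and 217 to 285 FPKM with it. CDH1 read 164 and 168 FPKM without XY018 and 165 to 184 FPKM with it. KRT18 read 212 and 247 FPKM without XY018 and 210 to 262 FPKM with it. Of the 4 fibroblast markers 1, COL1A1, reached 1 FPKM, at 3.84 to 5.73 FPKM. The part of these markers in the HBEGF values was not tested.

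AREG in HCC70 read 4.63 FPKM with vehicle, 6.68 and 7.21 FPKM with the lower and higher XY018 dose, 4.55 FPKM with ATV and 6.26 FPKM with both. The order of the libraries was that of HBEGF in that every XY018 library lay above both others. At 2.5 μM the AREG log2 ratio was 0.63 (0.11 to 1.13), 1.55-fold and just past the threshold, from about 54 fragments in the vehicle. At 1.25 μM it was 0.52 (0.00 to 1.05) and with the combination 0.43 (−0.09 to 0.96), both under 1.5-fold.

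EREG, which neighbours AREG on chromosome 4 at a distance of 56.4 kb, read 1.29, 1.63, 1.73, 1.24 and 1.55 FPKM in the same order of conditions. Its XY018 libraries too were the 3 highest, but the log2 ratios of 0.32, 0.40 and 0.25 all had counting intervals that included 0. TGFA hardly varied in HCC70, at 13.9, 14.2, 16.2, 13.8 and 13.9 FPKM, with a log2 ratio of 0.21 (0.05 to 0.38) at 2.5 μM XY018. The summed level of the 4 ligands was 30.1 FPKM with vehicle and 58.5 FPKM with 2.5 μM XY018, and most of that difference was HBEGF.

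The receptors of HCC70 stayed within 1.5-fold in every comparison. EGFR read 48.0, 52.5, 48.4, 49.4 and 45.4 FPKM in vehicle, the lower and higher XY018 doses, ATV and the combination. ERBB2 ran from 25.3 to 28.8 FPKM, with the ATV library highest. ERBB3 was lowest with vehicle, at 34.1 FPKM, and read 42.8, 38.1, 36.6 and 41.1 FPKM in the treated libraries. ERRFI1, the kinase inhibitor, ran from 46.5 to 57.2 FPKM, and its log2 ratios lay between −0.12 and 0.18.

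In counts, 1 of the 8 members was higher at 1.25 μM XY018 in HCC70 (HBEGF), where 1.93% of 11738 genes were higher and 2.64% lower. At 2.5 μM, 2 were higher (HBEGF and AREG), where 2.62% were higher and 3.26% lower. With ATV none of the 8 passed, where 2.22% were higher and 1.32% lower, and with the combination 1 was higher (HBEGF), where 4.38% were higher and 2.93% lower. No member was lower in HCC70. The member median log2 ratio was 0.25, 0.19, 0.01 and 0.12 in these 4 comparisons, against −0.02 to −0.01 for all genes. The comparisons of 1 line share its vehicle library.

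**Figure D2:**
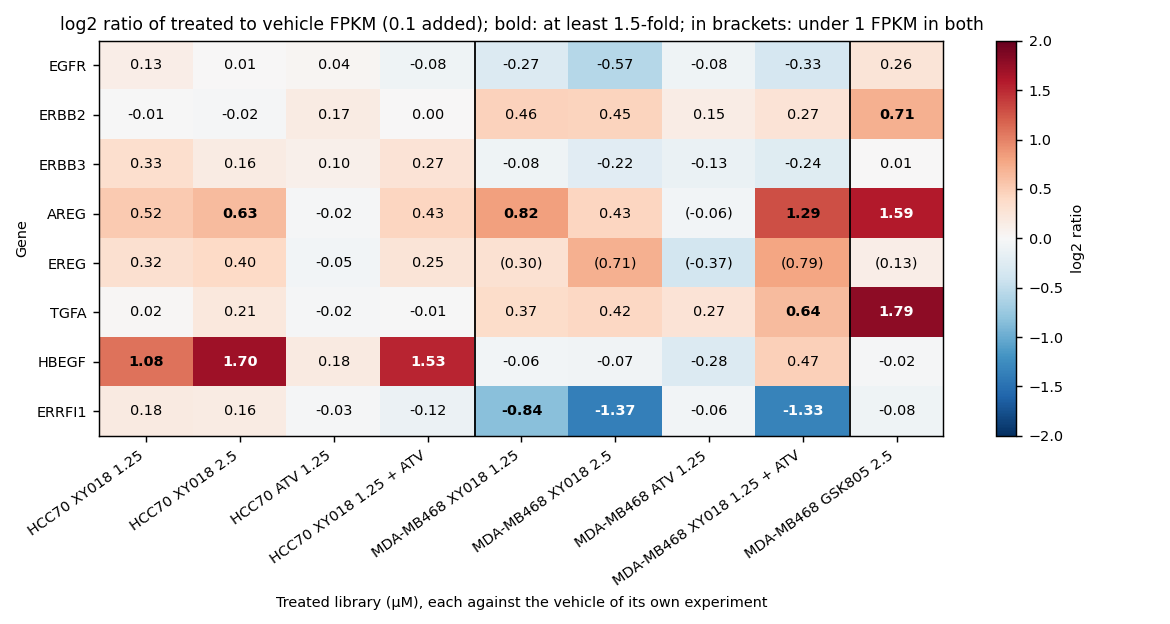
Log2 ratio to the vehicle of the same experiment (colour and printed value, 0.1 FPKM added) for the 8 genes (rows) in the 9 treated libraries (columns), bold where past 1.5-fold and in brackets where both libraries were under 1 FPKM. HBEGF is bold in the 3 HCC70 columns with XY018 and ERRFI1 in the 3 such MDA-MB468 columns, and neither is bold in any other column.

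In MDA-MB468, the gene that differed most with XY018 was ERRFI1. It read 53.9 FPKM with vehicle, 30.1 FPKM with 1.25 μM XY018, 20.8 FPKM with 2.5 μM XY018, 51.9 FPKM with ATV and 21.4 FPKM with both. The 3 XY018 libraries lay below the other 2, without overlap, a split whose share over all genes is not given here. The log2 ratio was −0.84 (−0.92 to −0.75) at 1.25 μM and −1.37 (−1.48 to −1.28) at 2.5 μM, a 1.78-fold and a 2.59-fold lower level. These libraries changed broadly, and 91.4% and 95.3% of genes changed less than ERRFI1.

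ATV alone left ERRFI1 at −0.06 (−0.13 to 0.02), and the combination at −1.33 (−1.43 to −1.24), where 95.5% of genes changed less. From 1.25 to 2.5 μM XY018 the log2 ratio was −0.54 (−0.65 to −0.43), and from 1.25 μM XY018 to the combination −0.50 (−0.60 to −0.39), each under 1.5-fold. In the first of these steps 1.03% of genes were higher and 1.73% lower, and in the second 2.1% and 1.76%. The combination against ATV alone gave −1.28 (−1.38 to −1.18), where 11.7% of genes were higher and 11.1% lower.

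Marker levels also differed between the libraries with and without XY018 in this line. CD14 read 17.9, 8.94, 7.33, 15.8 and 6.16 FPKM in vehicle, the lower and higher XY018 doses, ATV and the combination, and CD14, PTPRC and CD3E together summed to 16.4 and 18.5 FPKM without XY018 and 7.03 to 9.75 FPKM with it. The sum follows CD14, whereas PTPRC ran the other way, at 0.6 and 0.61 FPKM without XY018 and 0.74, 1.06 and 0.87 FPKM with it, and CD3E read at most 0.07 FPKM. The basal keratins summed to 239, 144, 124, 249 and 212 FPKM in the same order, and the epithelial markers to 2680 and 2820 FPKM without XY018 and 1810 to 2120 FPKM with it. The basal keratin KRT6B did not follow the sum, at 4.09, 7.93, 8.29, 7.08 and 20.5 FPKM, and KRT6A was at most 0.14 FPKM. KRT17 overlapped, at 109 FPKM with the combination and 100 FPKM with ATV. Fibroblast markers, of which COL1A1 alone reached 1 FPKM, summed to 5.0 and 5.26 FPKM without XY018 and 8.21 to 8.56 FPKM with it, and endothelial markers to at most 0.28 FPKM. Their part in the ERRFI1 values was not tested.

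The EGFR transcript of MDA-MB468 was lower with XY018 by less than 1.5-fold. It read 944 FPKM with vehicle, 784 FPKM with 1.25 μM XY018, 638 FPKM with 2.5 μM XY018, 891 FPKM with ATV and 751 FPKM with both. The 3 XY018 libraries were again the lowest. At 2.5 μM the log2 ratio was −0.57 (−0.58 to −0.55), a 1.48-fold difference just inside the threshold, and 70.0% of genes changed less. At 1.25 μM it was −0.27 and with the combination −0.33.

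ERBB2 was higher than vehicle in all 4 treated libraries, at 25.6, 35.4, 34.9, 28.4 and 30.9 FPKM, with a largest log2 ratio of 0.46 (0.39 to 0.54) at 1.25 μM XY018. ERBB3, the kinase-poor partner, was lower in all 4, at 25.0, 23.7, 21.5, 22.9 and 21.2 FPKM, with a largest size of −0.24 (−0.32 to −0.16) with the combination. Neither receptor reached 1.5-fold.

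Of the ligands in this MDA-MB468 experiment, AREG, EREG and HBEGF rested on fewer fragments than in HCC70, and TGFA did not. AREG read 0.9 FPKM with vehicle, 1.66 and 1.25 FPKM with the 2 XY018 doses, 0.86 FPKM with ATV and 2.35 FPKM with both. Its log2 ratio was 0.82 (0.10 to 1.74) at 1.25 μM XY018 from about 21 fragments in the vehicle, 0.43 (−0.40 to 1.37) at 2.5 μM and 1.29 (0.65 to 2.21) with the combination. The AREG values did not increase with dose, and the 2 doses differed by less than their counting error, with a log2 ratio of −0.38 (−1.19 to 0.32).

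TGFA, which binds EGFR with high affinity, was higher than vehicle in all 4 treated libraries. It read 7.46, 9.66, 10.0, 8.99 and 11.7 FPKM, and only the combination passed 1.5-fold, with a log2 ratio of 0.64 (0.49 to 0.79). HBEGF read 1.71, 1.64, 1.63, 1.39 and 2.41 FPKM, and the intervals of both XY018 doses included 0, at −0.06 (−0.55 to 0.41) and −0.07 (−0.55 to 0.42). With the combination HBEGF stood at 0.47 (0.06 to 0.94) over vehicle and at 0.75 (0.33 to 1.27) over ATV, the latter past 1.5-fold. AREG too passed it over ATV, at 1.35 (0.73 to 2.31). EREG stayed under 1 FPKM in every MDA-MB468 library, from 0.07 to 0.28 FPKM in this experiment, and was not counted.

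Thus 1 of 7 members compared was higher (AREG) and 1 lower (ERRFI1) at 1.25 μM XY018 in MDA-MB468, where 9.73% of 11844 genes were higher and 8.38% lower. At 2.5 μM none of 7 was higher and 1 was lower (ERRFI1), where 14.1% were higher and 14.5% lower. With ATV none of 6 passed, where 1.37% were higher and 0.803% lower. With the combination 2 of 7 were higher (AREG and TGFA) and 1 lower (ERRFI1), where 13.1% were higher and 12.2% lower. With so many genes past 1.5-fold in this line, these counts are a description of the named genes and no result about the family. The member medians were −0.06, −0.07, −0.07 and 0.27, against −0.01 to 0.01 for all genes.

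**Figure D3:**
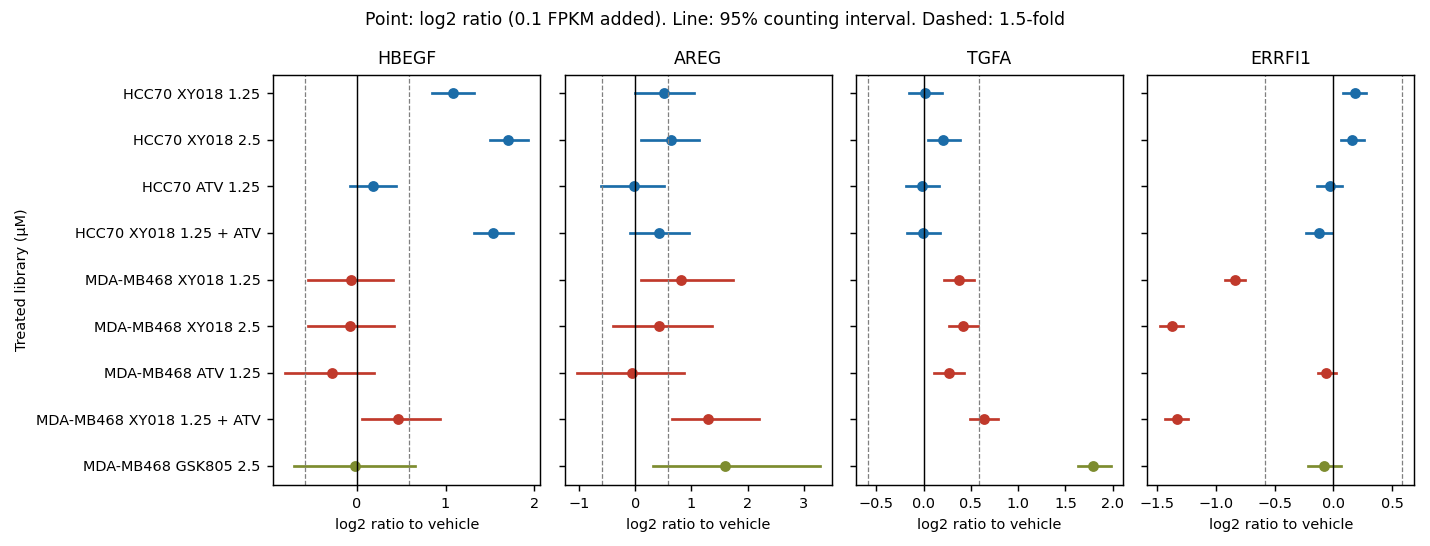
Log2 ratio to vehicle (horizontal axes, 0.1 FPKM added) of HBEGF, AREG, TGFA and ERRFI1 in the 9 treated libraries, with lines for 95% counting intervals and dashed lines at 1.5-fold. HBEGF intervals lie beyond 1.5-fold with XY018 in HCC70 and ERRFI1 intervals beyond it with XY018 in MDA-MB468, while the AREG intervals are wide and all those past the threshold reach back across it except that of the combination in MDA-MB468, from 0.65 to 2.21.

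GSK805 at 2.5 μM was compared with its own vehicle in MDA-MB468. TGFA read 10.4 FPKM with vehicle and 36.4 FPKM with GSK805, a log2 ratio of 1.79 (1.63 to 1.98) or 3.47-fold, and 91.9% of genes changed less. ERBB2 read 35.2 and 57.7 FPKM, a log2 ratio of 0.71 (0.61 to 0.81), and 72.6% of genes changed less. AREG read 0.688 and 2.26 FPKM, a log2 ratio of 1.59 (0.31 to 3.28) from about 5.9 fragments in the vehicle, and 90.5% of genes changed less. These 3 members were higher of 7 compared and none was lower, where 17.6% of 19951 genes were higher and 16.6% lower.

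The AREG value of this experiment is uncertain, because GRCh37 holds a near-identical copy, AREGB (chr4:75480629-75490486), that has its own entry in the GSK805 table and none in the other tables. AREGB read 1.15 FPKM with vehicle and 0.664 FPKM with GSK805, the opposite direction. The sum of the copies read 1.84 and 2.93 FPKM, a log2 ratio of 0.65. How reads were shared between the copies is not given in the sources used here.

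Marker lists differed too between these 2 libraries. CD14 read 93.7 FPKM with vehicle and 51.8 FPKM with GSK805, with PTPRC at or under 0.0259 FPKM and CD3E at 0. Basal keratins summed to 634 and 426 FPKM (with KRT6B the other way, at 8.35 and 11.8 FPKM). Epithelial markers summed to 5160 and 3770 FPKM (with CDH1 the other way, at 43.6 and 58.0 FPKM). Fibroblast markers summed to 10.4 and 17.2 FPKM, while endothelial markers were at or under 0.0138 FPKM. The hormone receptor and luminal list summed to 69.0 and 106 FPKM, with GATA3 at 34.5 and 61.6 FPKM. The part of these markers in the member values was not tested.

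The remaining members stayed within 1.5-fold with GSK805 or under 1 FPKM. EGFR read 617 and 741 FPKM, a log2 ratio of 0.26 (0.25 to 0.28). ERBB3 read 65.6 and 66.1 FPKM, HBEGF 2.1 and 2.07 FPKM, and EREG 0.299 and 0.336 FPKM. ERRFI1 read 33.7 and 31.8 FPKM, a log2 ratio of −0.08 (−0.22 to 0.06).

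Set beside XY018 at the same 2.5 μM, ERRFI1 stood at −0.08 with GSK805 and at −1.37 with XY018, and EGFR at 0.26 and −0.57. TGFA stood at 1.79 and 0.42, ERBB2 at 0.71 and 0.45, AREG at 1.59 and 0.43, and HBEGF at −0.02 and −0.07. ERBB3 stood at 0.01 (−0.06 to 0.08) and −0.22 (−0.30 to −0.14). Counting intervals of ERRFI1, EGFR, TGFA, ERBB2 and ERBB3 did not overlap between the antagonists, and those of AREG and HBEGF did. Antagonist and experiment cannot be told apart in these values, since the vehicles themselves were unlike. Between the 2 MDA-MB468 vehicles, ERBB3 was 2.62-fold higher in the GSK805 experiment, EGFR 1.53-fold lower and ERRFI1 1.6-fold lower, and 55.2% of 11952 genes differed by 1.5-fold or more. Over all these genes the median log2 ratio was 0.56 (quartiles 0.04 and 1.16), higher in the GSK805 experiment. Neither these folds and this share nor the ratios that follow are corrected for that shift. Read against the vehicle of the XY018 experiment instead, the GSK805 library gave log2 ratios of −0.76 for ERRFI1, −0.35 for EGFR, 1.40 for ERBB3, 1.17 for ERBB2 and 2.27 for TGFA.

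**Figure D4:**
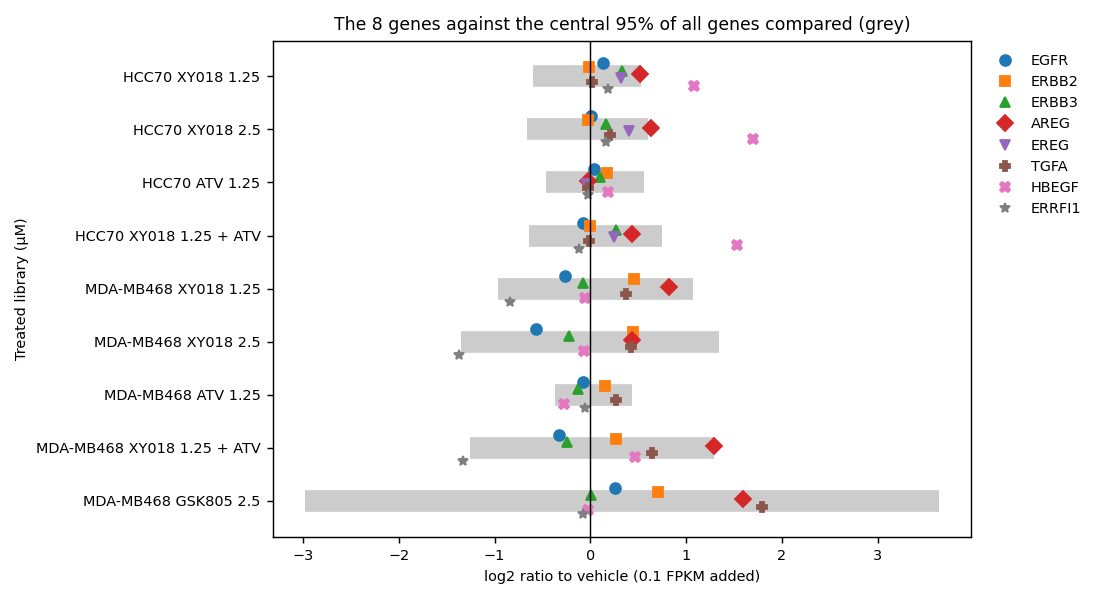
Log2 ratio to vehicle (horizontal axis, 0.1 FPKM added) of each member with at least 1 FPKM (symbols) in the 9 treated libraries (rows), over a grey bar for the central 95% of all genes compared. HBEGF lies right of the bar in the 3 HCC70 rows with XY018, AREG just right of it in the 2.5 μM row, from −0.66 to 0.60, and ERRFI1 left of the bar in the MDA-MB468 rows for 2.5 μM XY018 and the combination.

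For 5 members, the genes with the most similar pattern over the 9 treated libraries were looked up among 860 candidates. Candidates had at least 5 FPKM in all 12 libraries and passed 1.5-fold in at least 3 of the 9 comparisons. The lookup is a description only, since the candidates were chosen for having changed and the 9 points share 3 vehicle libraries. ERRFI1 was closest to CCND1, IGFBP4 and FAT1, each with Pearson r = 0.99. CCND1, which encodes cyclin D1, had log2 ratios of −1.44, −2.15 and −1.89 in the XY018 libraries of MDA-MB468 and of 0.20, 0.29 and −0.08 in those of HCC70. HBEGF was closest to SESN2 (r = 0.97), PTGES and TNFAIP2 (both r = 0.96), and SESN2, a stress-induced regulator of mTORC1, reached 0.99 at 2.5 μM XY018 in HCC70. ERBB2 was closest to DYM and TTC3 (both r = 0.97), TGFA to TMEM125 (r = 0.93) and AREG to CCDC91 and CLDND1 (both r = 0.90).

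The wider pathway was read from 44 further genes in 4 lists: the remaining receptor and ligands, ligand shedding, adaptors and signal transducers, and receptor downregulation and trafficking. In HCC70, 38 of the 44 were compared. None passed 1.5-fold at 1.25 μM XY018 or with ATV. At 2.5 μM XY018 1 was higher, where 2.62% of all genes were, and with the combination 1 was higher and 2 lower, where 4.38% and 2.93% were. In MDA-MB468, 3 of 36 were higher and 5 lower at 1.25 μM, where 9.73% and 8.38% of all genes were. At 2.5 μM 4 were higher and 6 lower, where 14.1% and 14.5% were, and with the combination 4 and 5, where 13.1% and 12.2% were. With ATV 0 of 34 were higher and 1 lower, where 1.37% and 0.803% were. With GSK805, 5 of 36 were higher and 3 lower, where 17.6% and 16.6% were. The list genes named below are therefore given as values of single genes, and no result about the lists is read from these counts.

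Of the remaining ligands, EPGN, BTC and EGF were compared in HCC70. EPGN (epigen), which lies 48.4 kb from EREG in the same chromosome 4 cluster, ran opposite to AREG and EREG in HCC70, at 8.08 FPKM with vehicle, 6.53 and 5.39 FPKM with the 2 XY018 doses, 7.51 FPKM with ATV and 4.19 FPKM with both. Its log2 ratio was −0.58 at 2.5 μM XY018, just under 1.5-fold, and −0.93 with the combination. BTC (betacellulin), at the other end of the 546 kb cluster, read 1.26, 1.26, 1.54, 1.4 and 1.58 FPKM. EGF in MDA-MB468 read 0.6 FPKM with vehicle and 1.2, 1.28 and 1.19 FPKM in the XY018 libraries, with log2 ratios of 0.89, 0.98 and 0.88. It was also higher with GSK805, at 1.22 and 3.93 FPKM. ERBB4 was under 1 FPKM in every library.

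In the shedding list, TIMP3, an inhibitor of ADAM17, had the largest difference at 2.5 μM of either antagonist. In MDA-MB468 it read 35.9 FPKM with vehicle, 20.1, 15.9 and 17.1 FPKM in the XY018 libraries and 21.4 FPKM with ATV, so all treated libraries lay below vehicle. It was also lower with GSK805, at 14.8 and 5.53 FPKM, while in HCC70 its log2 ratio was 0.37 at 2.5 μM XY018. Among transducers, PIK3R1, the regulatory subunit of PI3K, was lower in the 3 XY018 libraries of MDA-MB468, at 12.3 FPKM against 7.07, 6.32 and 5.46 FPKM. In the GSK805 experiment PIK3R1 read 35.7 FPKM with vehicle and 34.2 FPKM with GSK805, a log2 ratio of −0.06 (−0.15 to 0.03). GRB7, an adaptor that binds ERBB receptors, read 22.8 FPKM in HCC70 vehicle, 29.1 and 35.1 FPKM with the 2 XY018 doses and 42.6 FPKM with the combination. In MDA-MB468 GRB7 was past 1.5-fold at 2.5 μM and with the combination, at log2 ratios of 0.72 and 0.87. With GSK805 it stood at 0.39 (0.18 to 0.60), within 1.5-fold.

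In the list of receptor downregulation and trafficking, 2 of 14 genes were higher and 2 lower in all 3 XY018 libraries of MDA-MB468. In each library taken singly, 9.73% to 14.1% of all genes were higher and 8.38% to 14.5% lower. The share of all genes past 1.5-fold in all 3 libraries at once is not given here. CBLB, a ubiquitin ligase for activated receptors, read 3.21 FPKM with vehicle and 6.88, 7.55 and 7.71 FPKM with XY018, and RAB5A, a GTPase of early endosomes, 18.1 FPKM and 33.0, 32.8 and 33.8 FPKM. SOCS3, a feedback inhibitor of cytokine signalling, read 5.52 FPKM with vehicle and 2.29, 2.28 and 2.26 FPKM with XY018. LRIG3 read 5.57 FPKM and 3.22, 2.9 and 3.04 FPKM. With GSK805, CBLB and RAB5A were again past 1.5-fold, at log2 ratios of 0.93 and 0.64, whereas LRIG3 was higher, at 0.60, and SOCS3 stood at 0.41 (0.19 to 0.63), within 1.5-fold. In HCC70 none of these 4 genes differed by 1.5-fold with XY018 alone. No protein or phosphorylation was measured in these libraries.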

How the data were processed

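Total RNA from 12 cell cultures was sequenced from TruSeq libraries, and the authors deposited FPKM values per gene in 3 tables, 1 per experiment. Reads had been aligned by the authors to GRCh37 (hg19) using Bowtie and BWA, and Cufflinks gave the gene levels (versions not stated). The headers name no unit, and FPKM was taken from the use of Cufflinks and from the values, which are neither counts nor scaled to one total. Because the deposited values are FPKM and each condition has 1 library, no count model and no test was applied.

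Depth was estimated from the spacing of low FPKM values and transcript length, a step tested on simulated data. Fragments per gene follow from it, with 95% Clopper-Pearson intervals. Where a symbol had several entries, that with the highest mean was used. Ratios took 0.1 FPKM as pseudocount, a 1 FPKM minimum and a 1.5-fold threshold. The genes named beyond the 8 members were drawn from 3 sources. These were list genes past 1.5-fold in the 3 XY018 libraries of a line, those with the largest ratio per list, and the 3 most alike genes (at least 5 FPKM). Of these, GAB1 (log2 ratio −0.64 with GSK805) and CBL (0.41 at 2.5 μM XY018 in HCC70) were not described above. Not all of the 3 most alike genes of ERBB2, TGFA and AREG were named. BTC and ERBB4 were added after values were seen. The members and lists were chosen with earlier results of these data known. Alternatives were other pseudocounts, filters, thresholds, rescaling and summed entries, and 2 added after seeing the data (AREG with AREGB, and symbols shared by all tables). RefSeq promoter sequences (GRCh38.p14) were matched for 7 of 8 members, and protein sequences were not analysed here. One leukocyte marker of the lists is not reported here. Tables were read with pandas 2.3.3 under Python 3.11.15 and numpy 2.4.6, intervals came from scipy 1.17.1, and plots from matplotlib 3.10.9.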

Additional observations from a re-analysis of the deposited data

Results flagged for a closer look

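ERBB2 and ERBB3 had log2 ratios of opposite sign in the 2 lines in each of the 3 conditions with XY018, although those of ERBB2 in HCC70 were close to 0. ERBB2 had log2 ratios of −0.01, −0.02 and 0.00 in HCC70 and of 0.46, 0.45 and 0.27 in MDA-MB468, a difference at 2.5 μM of −0.46 for HCC70 minus MDA-MB468. The counting intervals of ERBB2 in HCC70 included 0, and rescaling to a median of 0 turned both single-agent values to 0.01, so that their sign is not settled. ERBB3 had log2 ratios of 0.33, 0.16 and 0.27 in HCC70 and of −0.08, −0.22 and −0.24 in MDA-MB468, a difference at 2.5 μM of 0.38. None of these values passed 1.5-fold, and the differences between the lines were not tested, since each condition has 1 library. Opposite signs in the 3 conditions were not particular to these receptors. The list genes RHBDF2, TIMP3, GAB1, SOS1, NRAS, LRIG1 and RAB7A showed them too, and the share over all genes is not given here.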

How the results depend on the processing

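Over the 9 comparisons with vehicle, 13 member values passed 1.5-fold, and 8 passed a 2-fold threshold. For the 44 list genes these sums were 40 and 11. At 2.5 μM XY018 in HCC70 the members past the threshold went from 2 to 1 with a pseudocount of 1 FPKM and to 1 at 2-fold, AREG being lost. At 1.25 μM XY018 in MDA-MB468 they went from 2 to 1 with a pseudocount of 1 FPKM, to 0 at 2-fold and to 1 with a minimum of 5 FPKM. At 2.5 μM in MDA-MB468 they went from 1 to 2 with no minimum, EREG being added. With GSK805 they went from 3 to 5 against the vehicle of the XY018 experiment, and 5 of 8 member ratios then moved beyond their counting interval. Ratios against that vehicle are not corrected for the median log2 shift of 0.56 between the 2 MDA-MB468 vehicles. No member value past 1.5-fold changed sign under the alternatives run, while the EGFR and HBEGF ratios with GSK805, within 1.5-fold, went from 0.26 to −0.35 and from −0.02 to 0.26 against that other vehicle. Rescaling turned 3 ratios within 0.02 of 0 in HCC70 (ERBB2 at both XY018 doses, TGFA with the combination) to 0.01. A pseudocount of 0.01 FPKM and summed entries moved none of 120 member ratios, a pseudocount of 1 FPKM moved 1 and rescaling to a median of 0 moved 3. Over symbols shared by all tables, 13.4% of genes were higher and 12.5% lower with GSK805. Among the members, depth limits AREG and EREG most, down to about 5.92 fragments for AREG in the vehicle of the GSK805 experiment and 6.37 for EREG with ATV in MDA-MB468. No paired analysis was possible because the labels give no replicate numbers and no value comes from a test. The lines were not used as pairs, and no library was left out, since each condition has 1.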
